A study of Homo sapiens with 6 samples.

Results

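In H2087-LCC cells, 85 of 21293 genes were at about the level of inhibitor-treated cells after 3 days of TGFβ and were lower after 7 days. They are called late fallers here. H2087-LCC is a human lung adenocarcinoma cell line, a dormant metastatic derivative that was selected as 1 population in mice, so all libraries share that single background. Bulk RNA was sequenced from cells given the TGFβ receptor inhibitor SB505124 for 3 days (SB), from cells given TGFβ for 3 days and from cells given TGFβ for 7 days, with 2 libraries in each group. SB blocks what TGFβ signal the cultures make themselves, and no SB library of 7 days was analysed here, so days under TGFβ and days in culture cannot be told apart. The study describes the libraries of a group as technical replicates, so p-values measure the technical spread between libraries and not the spread between cultures.

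The members were selected on the measured values themselves. A gene had to average at least 50 normalized counts over the 6 libraries, to lie within 0.3 of SB at 3 days on the log2(value + 1) scale, and to be lower by more than 0.8 at 7 days than at 3 days. Of 21293 genes in the table, 12307 had the required level and 7606 of these were within 0.3 of SB at 3 days. A fall of more than 0.8 was found for 336 genes with that level, of which 197 were already at least 0.3 below SB at 3 days, 54 were at least 0.3 above it, and 85 met the whole rule. Late fallers therefore made up 25.3% of the genes that fell that far and 1.12% of those that were flat at 3 days. Because the rule used the differences between all 3 groups, those differences are given for the members as a description, without a test, and every count of members between groups follows in part from the rule. Limma calls (adjusted p under 0.05) are given for genes that the rule did not select. In bulk RNA, fewer cells of a kind and less RNA per cell cannot be told apart.

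TGFβ binds a pair of receptor kinases that activate SMAD factors, and in carcinoma cells it slows the cell cycle while it drives epithelial-mesenchymal transition. YAP and TAZ are co-activators that enter the nucleus in spread cells under actin tension and drive genes through TEAD factors. FOSL1 and ATF3 belong to the AP-1 and ATF family, and MYC drives genes of ribosome production and cell growth. Dual-specificity phosphatases and Sprouty proteins are induced by the RAS-MAPK cascade and damp it. Late fallers included targets of YAP and TAZ, AP-1 and ATF factors, MYC, a dual-specificity phosphatase and a Sprouty protein, together with genes of DNA replication, small nucleolar RNAs and cell junction proteins.

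Upstream sequence is shown for 5 late fallers, chosen from the gene groups on which the results turn: ANKRD1, NEXN and AMOTL2 from the YAP, TAZ and actin genes, and CDC25A and RRM2 from the cell cycle genes. Each window shown holds the word marked in it, whereas some other late fallers of these groups lack that word. Each run is the 250 bases before the annotated start of the canonical transcript (GENCODE on GRCh37, the build of the files), written 5′ to 3′ on the strand of the gene. Capitals mark the TEAD word GGAATG in the first 3, an E2F word (TTTCGCGC, TTTGGCGC, TTTCCCGC or TTTGCCGC) in CDC25A and the NF-Y word CCAAT in RRM2, each on either strand. The windows lie at chr10:92680845-92681094 (minus strand) for ANKRD1, chr1:78354059-78354308 (plus) for NEXN, chr3:134093290-134093539 (minus) for AMOTL2, chr3:48229908-48230157 (minus) for CDC25A and chr2:10262616-10262865 (plus) for RRM2.
ANKRD1: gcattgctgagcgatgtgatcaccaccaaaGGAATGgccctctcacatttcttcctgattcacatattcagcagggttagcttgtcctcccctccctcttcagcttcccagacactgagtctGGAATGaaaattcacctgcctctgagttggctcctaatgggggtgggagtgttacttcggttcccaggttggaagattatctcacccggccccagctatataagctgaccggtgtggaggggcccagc
NEXN: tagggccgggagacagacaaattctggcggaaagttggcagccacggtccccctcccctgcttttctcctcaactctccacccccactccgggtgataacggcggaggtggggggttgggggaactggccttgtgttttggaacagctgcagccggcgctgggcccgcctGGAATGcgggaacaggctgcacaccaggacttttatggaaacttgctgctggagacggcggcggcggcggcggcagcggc
AMOTL2: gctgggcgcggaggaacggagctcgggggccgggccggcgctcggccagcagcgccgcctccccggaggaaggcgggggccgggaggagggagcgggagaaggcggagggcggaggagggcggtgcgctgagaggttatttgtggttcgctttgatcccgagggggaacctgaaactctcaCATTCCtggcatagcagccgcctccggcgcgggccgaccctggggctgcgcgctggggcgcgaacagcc
CDC25A: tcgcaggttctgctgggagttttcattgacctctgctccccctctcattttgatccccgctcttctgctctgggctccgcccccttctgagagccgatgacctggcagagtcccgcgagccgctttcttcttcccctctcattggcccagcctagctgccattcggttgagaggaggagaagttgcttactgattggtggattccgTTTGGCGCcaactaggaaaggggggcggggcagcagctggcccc
RRM2: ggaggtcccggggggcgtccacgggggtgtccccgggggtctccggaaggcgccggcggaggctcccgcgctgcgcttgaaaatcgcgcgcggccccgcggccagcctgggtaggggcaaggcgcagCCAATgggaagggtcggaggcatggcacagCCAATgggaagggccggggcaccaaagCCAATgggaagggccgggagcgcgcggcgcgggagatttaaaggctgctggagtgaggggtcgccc

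The ANKRD1 window held the TEAD word at 2 places, and the NEXN and AMOTL2 windows held it once each. In RRM2 the CCAAT word occurred 3 times. Over a window of 300 bases (250 before and 50 after the start), searched on both strands for 14 motifs, 75 late fallers had a position in the annotation. The TEAD word was present in 12 of these 75 windows (16%) against 1207 of the windows of 12013 genes that had the required level. The windows of the YAP and TAZ targets AXL and FJX1 did not hold it. The AP-1 word TGANTCA was present in 7 (9.33%) against 4.16%, and the MYC-type E-box CACGTG in 13 (17.3%) against 10.4%. The ETS word CCGGAA was present in 11 (14.7%) against 30.8%, and the E2F words in 5 (6.67%) against 5.41%. Among cell cycle late fallers, RRM2, HMMR, SPC24, TEX15 and C11orf82 held no E2F word. None held the CREB word TGACGTCA or the palindromic SMAD word GTCTAGAC, which are present in 3.46% and 0.117% of all these windows. The GC box GGGCGG was present in 66.7% of the 75 windows against 74.3%, and CCAAT in 30.7% against 36.2%. The E2 box CACCTG was present in 21.3% against 17.9%, the cell cycle word TTTGAA in 6 of the 75 against 9.03%, and TATAAA in 6.67% against 5.26%. The NRF1 word GCGCATGC was present in 3 of the 75 against 5.84%, and the forkhead word TGTTTAC in 1.33% against 2.09%. AP-1 and TEAD words both occur in the ANKRD1, CPA4 and ALOXE3 windows. A match of letters is a description of the window and not a binding site.

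Checked against markers of the labelled cell type, the keratin genes KRT8 and KRT18 were at 31757 normalized counts or more in every library. CDH1, the epithelial cadherin, was at 371 and 635 under SB, 28 and 24 after 3 days, and 10 and 9 after 7 days of TGFβ. EPCAM was at 10180 and 9106 under SB and 2988 and 3277 at 7 days. NKX2-1 was at 2784 and 2908 and then 853 and 857, and SOX2 at 1552 and 2658 and then 942 and 1049. KRT7 and SOX9 were higher at 7 days than under SB, and KRT19 overlapped. Of markers of other cell types, PTPRC, CD3E, ITGAM, DCN, LUM and HBB were at 8 or fewer in every library. Some other markers on those lists moved with the groups. The 6 leukocyte markers summed to 4849 and 5167 under SB and to 5603 and 6135 at 7 days, mostly from CD68 and CSF1R. CD68 stayed between 4368 and 5113 in all libraries. CSF1R was at 34 and 31 under SB, 626 and 677 at 3 days, and 1114 and 1032 at 7 days. The 4 endothelial markers summed to 73 to 81 under SB and 173 to 177 at 7 days. The rise was mostly in TEK, at 11 and 12 and then 115 and 117. PECAM1 was also higher, at 41 and 36 and then 56 and 53, whereas VWF and CDH5 were lower at 7 days. The 4 fibroblast markers, mostly COL1A1, summed to 210 to 258 under SB and to 465 to 595 at 7 days. Their part in the falls was not tested. The library totals ran from 34306283 to 36340734 normalized counts after the authors' scaling by library size, and the number of reads behind them was not used here.

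The SB libraries differed from each other in the genes described here, and this bears on each comparison with SB. Of the 85 late fallers, 71 were higher in SB replicate 1 than in SB replicate 2, with a median difference of 0.23 (log2). Over all 12307 genes that had the required level the share was 52.7% and the median difference 0.016. Of 175 genes that were flat at 3 days and more than 0.8 higher at 7 days, only 30 (17.1%) were higher in SB replicate 1. In the 54 genes that fell after a rise at 3 days it was 48, and in the 197 that were already lower at 3 days it was 108. Across the 12307 genes the difference between the SB libraries (replicate 1 minus 2) and the change from 3 to 7 days had a Pearson r of -0.43 and a Spearman coefficient of -0.44, given as a description because genes are not independent replicates. The SB libraries are not part of the change from 3 to 7 days, so these measures share no library. SB replicate 2 thus differed from SB replicate 1 in the direction in which the 7 day libraries differed from the 3 day libraries, and the part this plays in the selection was not tested. By contrast, 49 of the 85 late fallers were higher in replicate 1 of the 3 day group, against 53.6% of the 12307 genes. In the 7 day group 43 were higher in replicate 1, against 45.8%.

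**Figure D1:**
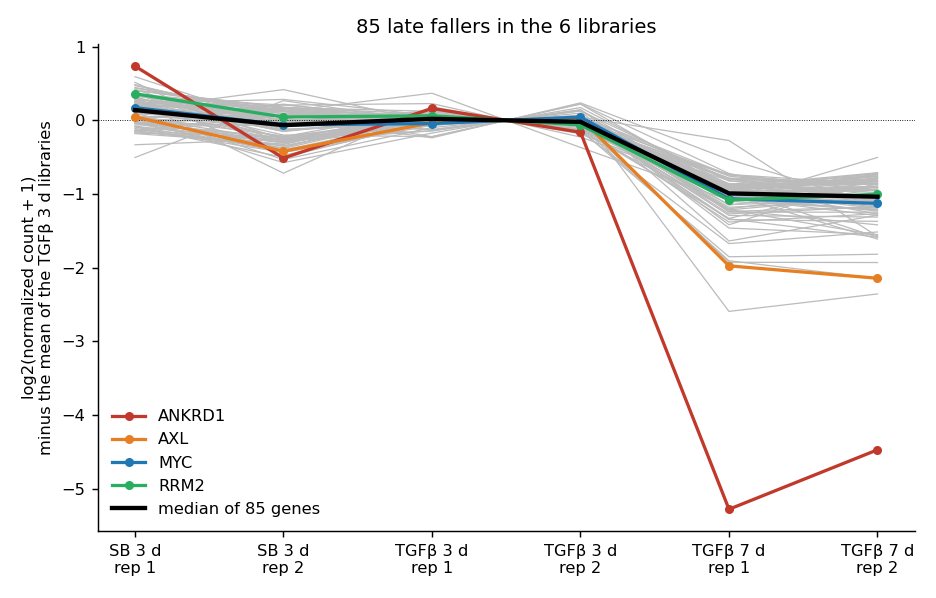
Level of each of the 85 late fallers (grey lines) in the 6 libraries, as log2(normalized count + 1) minus the gene's mean in the TGFβ 3 d libraries. The black line is the median of the 85 genes and the coloured lines are ANKRD1, AXL, MYC and RRM2. All lines drop at 7 days, with a change of -4.88 for ANKRD1, and most are higher in SB replicate 1 than in SB replicate 2.

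The change between 3 and 7 days ran from -4.88 (ANKRD1) to -0.80 (PGM5P2), with a median of -0.99 (log2), which corresponds to a level 1.99-fold lower. The median over all 14395 genes tested was 0.019. In 42 genes the level was lower by more than 1, and in 4 by more than 2. Both 7 day libraries were below both 3 day libraries for 85 of 85 late fallers, against 32.9% of all tested genes. That count follows from the rule and supports nothing further. Of all tested genes, limma called 16.2% lower and 17% higher at 7 than at 3 days.

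At 3 days 34 late fallers were above and 51 below the SB mean, with a median difference of -0.04. The ranges of the SB and the 3 day libraries overlapped for 57 of them. Both 3 day libraries were above both SB libraries for 10 genes, against 30.3% of all tested genes, and below both for 18, against 32.9%. Of all tested genes, limma called 14.9% higher and 14% lower than SB at 3 days, that is 2149 and 2021 genes. With equal library totals these became 1819 higher and 2552 lower, so the balance between directions at 3 days depends on the scaling. Against SB, the level at 7 days was lower by a median of 1.09, within a range of differences from -4.99 to -0.55. Both 7 day libraries were below both SB libraries for 84 of 85, against 38.6% of tested genes. A difference below -0.5 from SB at 7 days is built into the rule, so this count supports nothing further. Of all tested genes, limma called 26.9% lower than SB at 7 days.

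**Figure D2:**
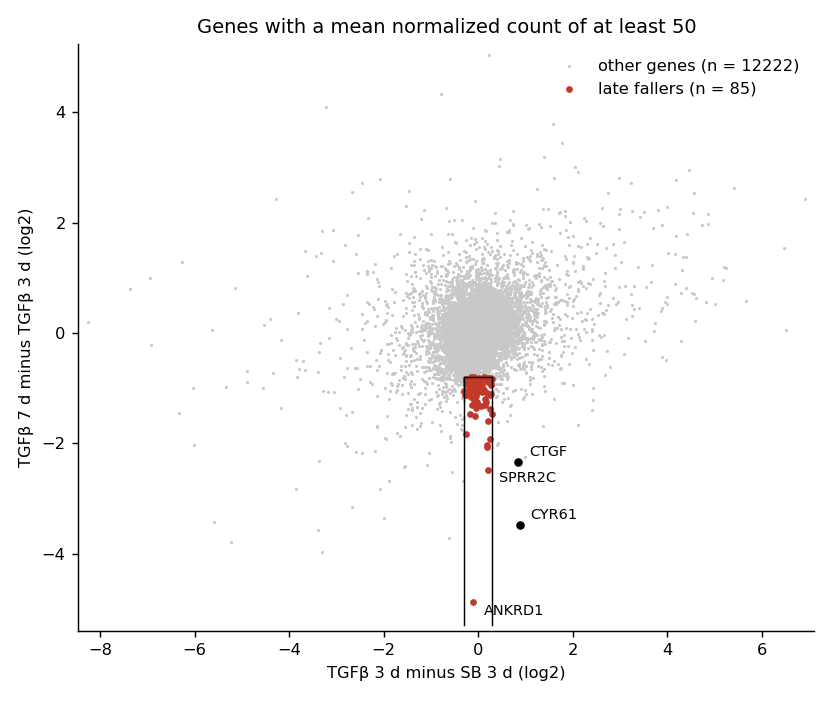
Difference between TGFβ 3 d and SB (x axis) and between TGFβ 7 d and TGFβ 3 d (y axis), both in log2, for genes with a mean of at least 50 normalized counts. The box marks the limits of the rule and holds the 85 late fallers (red). ANKRD1 lies lowest in the box at -4.88, and CYR61 and CTGF lie to its right because they were above SB at 3 days.

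Genes just inside and just outside the limits had almost the same values. On the fall, PGM5P2 and SOWAHC were just inside at -0.80, and AIFM2 and SNORD110 just outside, also at -0.80 after rounding. On the level at 3 days, FJX1 (0.30) and PPIF (-0.29) were inside, and ANKRD18A and PPP1R15A (both -0.30) were outside. On abundance, KTN1-AS1 and SNORD26 averaged 50.3 normalized counts, whereas FZD8 at 48.7 and LINC00472 at 48.0 were left out. With any 1 library left out, the rule returned 79 to 118 genes and kept between 56 and 73 of the 85. Without SB replicate 1 it kept 64 and without SB replicate 2 it kept 60, and 23 were kept whichever library was left out. Taking 1 library per group, replicate 1 returned 101 genes with 52 of the 85, and replicate 2 returned 209 genes with 47. A fall of more than 0.8 held in 75 of the 85 within replicate 1, in 65 within replicate 2 and in 55 in both. The 3 day level stayed within 0.3 of SB in both replicates for 42 of the 85. Replicate numbers did not pair the libraries, so taking them by number is arbitrary. The members were chosen on the means of the same libraries, so these counts follow in part from the rule.

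ANKRD1, AXL, AMOTL2 and the pseudogene SPRR2C were the 4 late fallers that were lower by more than 2. The first 3 are targets of YAP and TAZ. The fixed list of 29 genes held 4 late fallers, ANKRD1, AXL, AMOTL2 and FJX1, with a median change of -2.04 from 3 to 7 days. ANKRD1 encodes an ankyrin repeat protein of nucleus and sarcomere. It was at 258 and 108 normalized counts under SB, 173 and 138 after 3 days of TGFβ, and 3 and 6 after 7 days. Its 7 day libraries lay far below the other 4, and its SB libraries differed by more than the 3 day libraries did. The change was -4.88, or 29.4-fold lower on the log2(value + 1) scale, and with a pseudocount of 5 it was -4.09, because the 7 day values are close to 0.

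AXL encodes a receptor tyrosine kinase for the ligand GAS6. It was at 4395 and 3179 under SB, 4161 and 4344 at 3 days, and 1080 and 961 at 7 days. The 3 day values lay inside the range of the SB values, and the level then was 4.17-fold lower at 7 days. AMOTL2 encodes an angiomotin that binds YAP at junctions, and had 4086 and 3092 under SB, 4258 and 3816 at 3 days, and 1074 and 910 at 7 days, a 4.07-fold lower level. FJX1, the human four-jointed gene, had 476 and 358, then 504 and 510, then 200 and 168. It stands at the edge of the rule, since both of its 3 day libraries were above both SB libraries.

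The other 25 genes of the list could be tested, since they were not selected by the rule. From 3 to 7 days limma called 13 of them lower and 6 higher, and their median change was -0.45 against 0.019 over all tested genes. At 3 days against SB, 7 were lower and 11 higher. The changes that were largest among them belong to the classical targets. CYR61, a secreted matricellular protein, was at 11080 and 5910 under SB, rose to 15074 and 14686 at 3 days and fell to 1408 and 1262 at 7 days (change from 3 days -3.48 ± 0.21 SE, limma adjusted p = 1.62e-06). CTGF, its relative, was at 3032 and 1724, then 4608 and 3657, then 881 and 751 (-2.33 ± 0.21 SE, limma adjusted p = 2.37e-05). F3, the tissue factor of coagulation, was at 2289 and 1420, then 3992 and 3210, then 782 and 720 (-2.25 ± 0.18 SE, limma adjusted p = 1.25e-05). These 3 genes were above SB by 0.84 to 0.99 at 3 days, which kept them out of the late fallers. They too were higher in SB replicate 1 than in SB replicate 2.

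**Figure D3:**
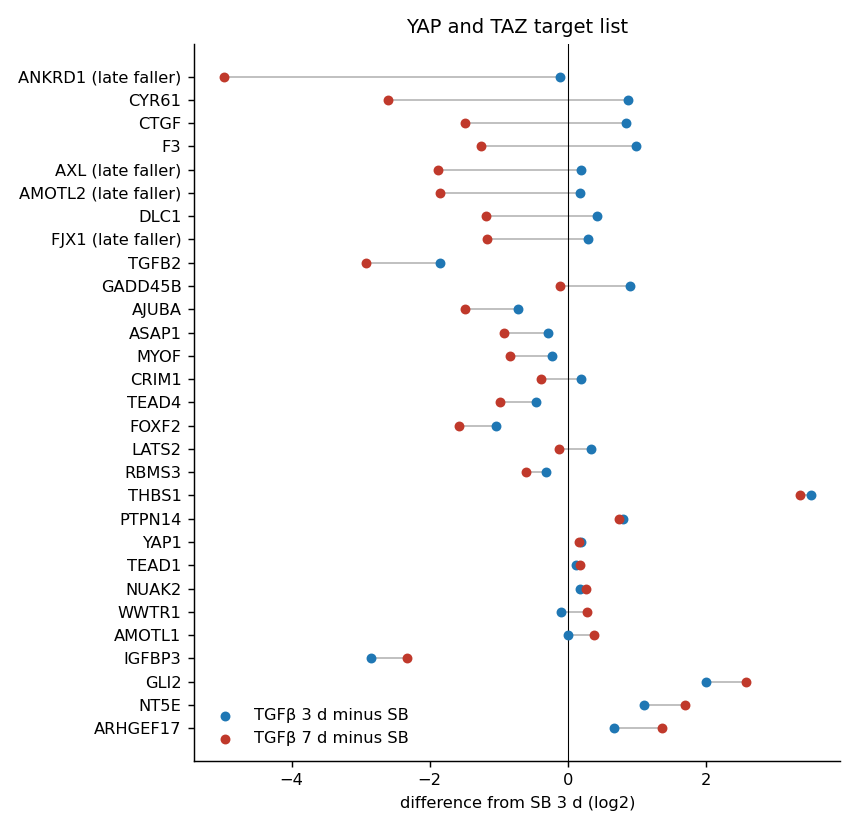
Differences from SB (log2) for the 29 genes of the YAP and TAZ target list, at 3 days of TGFβ (blue) and at 7 days (red), ordered by the change between them. ANKRD1, AXL, AMOTL2 and FJX1 start near 0 at 3 days, whereas CYR61, CTGF and F3 start above SB, and all 7 are below SB at 7 days.

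Regulators of actin and small GTPases gave 7 late fallers with a median change of -1.10. NEXN encodes nexilin, which binds actin filaments. It was at 1796 and 1138 under SB, 1307 and 1085 at 3 days, and 329 and 337 at 7 days, a change of -1.84. SYDE2, a GTPase-activating protein, was steady within each group, at 319 and 321, then 312 and 307, then 121 and 119. The exchange factor gene ARHGEF28 changed by -1.20, the actin-linked COBLL1 by -1.10, ankyrin-G gene ANK3 by -0.91, ARHGAP18 by -0.86 and ARAP2 by -0.81. Of these 7, SYDE2 and COBLL1 had both 3 day libraries below both SB libraries, and the other 5 overlapped with SB. ARHGAP18 and ARHGEF28 were the late fallers among 50 genes named ARHGAP or ARHGEF with a mean of at least 50. Of the other 48, 5 were lower and 9 higher at 7 than at 3 days, with a median of 0.13. The list of SRF and MRTF targets, which covers contractile actin genes, held no late faller. Of its 28 tested genes 5 were lower and 4 higher from 3 to 7 days, with a median change of -0.18.

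FOSL1, ATF3 and MYC were the late fallers on the list of AP-1 and immediate early factors. FOSL1 encodes FRA1, an AP-1 subunit. It was at 17421 and 10815 under SB, 12415 and 13592 at 3 days, and 4712 and 4433 at 7 days. The 3 day libraries lay between the SB libraries, and the level at 7 days was 2.84-fold lower. ATF3, a stress-induced factor that is also on the list of ATF4 targets, was at 415 and 401, then 519 and 422, then 146 and 163, a change of -1.59 from 3 to 7 days. Both 3 day libraries of ATF3 were above both SB libraries. MYC was at 16285 and 13846 under SB, 14016 and 14898 at 3 days, and 6907 and 6614 at 7 days. The first 4 libraries overlapped, and the level at 7 days was 2.14-fold lower.

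Of the other 22 tested genes on this list, 7 were lower and 4 higher from 3 to 7 days, with a median change of -0.08, and 12 were higher and 3 lower at 3 days against SB. EGR1 was at 1828 and 1110 under SB, 3312 and 4140 at 3 days, and 1676 and 779 at 7 days (-1.70 ± 0.30 SE, limma adjusted p = 0.00149, or 0.0537 with no filter on low values). MAFF was at 661 and 639, then 891 and 822, then 421 and 359 (-1.14 ± 0.12 SE, limma adjusted p = 7.68e-05). EGR2 was low throughout, at 21 and 13, then 21 and 23, then 8 and 9 (-1.28 ± 0.38 SE, limma adjusted p = 0.0233), and its call was lost when any 1 TGFβ library was left out and with no filter on low values (0.0527). The other factors among the late fallers were TCF19 at -0.96, the homeobox gene NKX2-5 at -0.93 with a mean of 91.2, and the zinc finger genes ZNF850, ZNF628 and ZNF165 at -0.84 to -0.83. These 3 stood among 439 ZNF genes with a mean of at least 50, whose median change was 0.10. Of the other 436, 35 were lower and 75 higher.

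A pair of rows near MYC were also late fallers. TMEM75, now annotated as the noncoding LINC02912, lies 204 kb from MYC and was at 68 and 60 under SB, 84 and 68 at 3 days, and 32 and 25 at 7 days. MIR1204, a microRNA hairpin within PVT1, was at 77 and 63, then 78 and 78, then 40 and 47. Both lie within the span of PVT1, whose own row changed by -0.38 at 3 days and by -0.20 from 3 to 7 days. TMEM75 shares no annotated exon with PVT1, which is on the opposite strand. The library kit does not mark strand, so unspliced reads of PVT1 there cannot be told apart from reads of TMEM75. Reads on the MIR1204 row may come from the PVT1 transcript that holds it, which was not tested.

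Among kinases and signalling regulators there were 7 late fallers with a median change of -1.11. NRK, a Nik-related kinase, had 2616 and 2283 under SB, 2951 and 2851 at 3 days, and 762 and 760 at 7 days. Both of its 3 day libraries were above SB, and the level then was 3.81-fold lower. DUSP2, a nuclear MAPK phosphatase, had 160 and 120, then 113 and 135, then 39 and 50, a change of -1.46. SPRY2, a Sprouty inhibitor of receptor signalling, had 4656 and 3731, then 3373 and 3468, then 1696 and 1586, a change of -1.06. SPRY2 is close to the limit at 3 days, with both libraries below SB and a difference of -0.29. CDKL1, the CSK adaptor PAG1 and the AMPK subunit gene PRKAG2 changed by -1.13 to -1.07, and the kinase gene PIM1 by -0.83 after a 3 day level above SB.

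DUSP2 and SPRY2 were the late fallers on the list of 24 MAPK feedback genes. Of the other 22, 8 were lower and 8 higher from 3 to 7 days, with a median change of -0.02. DUSP4, another nuclear MAPK phosphatase, moved against DUSP2. It was at 423 and 495 under SB, rose to 723 and 816 at 3 days and to 1590 and 1714 at 7 days (1.10 ± 0.12 SE from 3 to 7 days, limma adjusted p = 7.97e-05). DUSP8 was low, at 9 and 10, then 4 and 8, then 21 and 19 (1.64 ± 0.43 SE, limma adjusted p = 0.0136). CXCL8, a chemokine induced by this cascade, was at 1974 and 4438, then 728 and 532, then 310 and 344 (-0.93 ± 0.28 SE, limma adjusted p = 0.0252). The calls for DUSP8 and CXCL8 did not hold without TGFβ 3 day replicate 1 or without either 7 day library, and that for CXCL8 was also lost with no filter on low values (limma adjusted p = 0.171) and with no trend (0.138). The genes of this list that were called thus went both ways.

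**Figure D4:**
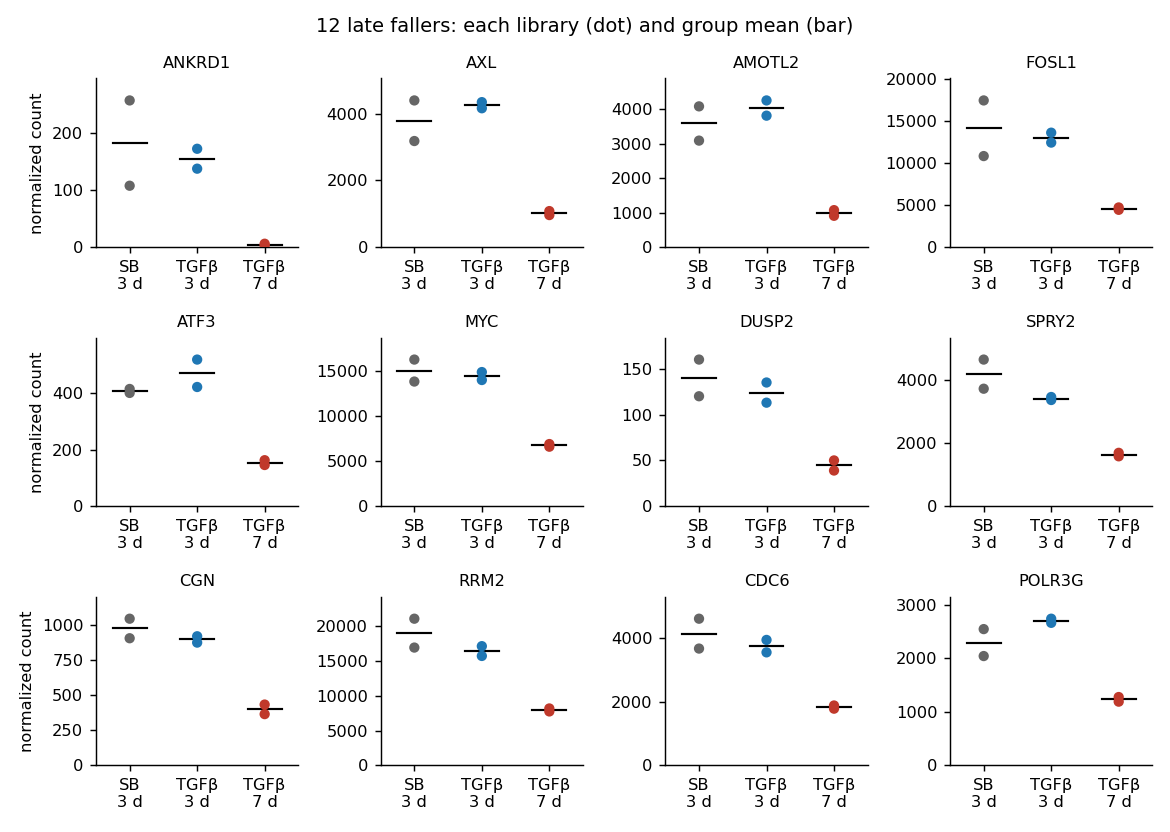
Normalized counts of 12 late fallers in each library (dots) with the mean of the 2 libraries of each group (bars), on linear axes from 0. In each panel the dots of SB and TGFβ 3 d lie close together or overlap, and both TGFβ 7 d dots lie below them.

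The 8 late fallers of the cell cycle and genome changed by -1.04 to -0.80, with a median of -0.88. RRM2, the small subunit of ribonucleotide reductase, was at 21102 and 16950 under SB, 17153 and 15745 at 3 days, and 7765 and 8191 at 7 days. CDC6, which loads the replicative helicase, was at 4604 and 3667, then 3938 and 3548, then 1880 and 1781. CDC25A, the phosphatase that activates CDK2, was at 1539 and 1402, then 1308 and 1228, then 698 and 654. In RRM2 and CDC6 the SB and 3 day ranges overlapped, whereas both CDC25A libraries at 3 days were below both SB libraries.

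The spindle-associated HMMR was at 4915 and 3851, then 3791 and 3468, then 1907 and 2133. C11orf82, also known as DDIAS, and the p53 target AEN, a nuclease, changed by -0.80 and -0.85, and the germ cell gene TEX15 by -0.99. Of the 8 genes, 6 were higher in SB replicate 1 than in SB replicate 2.

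Other genes of the replication and mitosis lists, which the rule did not select, were tested. On the list of 43 DNA replication genes, CDC6 was the 1 late faller. Of the other 42, 23 were lower and 0 higher at 3 days against SB by limma, and 37 were lower and 0 higher from 3 to 7 days, with medians of -0.33 and -0.49. On the mitosis list CDC25A, SPC24 and HMMR were late fallers. Of the other 41, 26 were lower and 0 higher at 3 days, and 32 were lower and 1 higher from 3 to 7 days, with medians of -0.32 and -0.48. UBE2C, the ubiquitin-conjugating enzyme of the anaphase-promoting complex, was at 18277 and 14679, then 9082 and 9004, then 4543 and 4897 (-0.94 ± 0.10 SE from 3 to 7 days, limma adjusted p = 7.68e-05). AURKB was at 3403 and 3184, then 2341 and 2494, then 1353 and 1311 (-0.86 ± 0.09 SE, limma adjusted p = 6.49e-05), and CDC20 at 7468 and 6555, then 4904 and 5250, then 3026 and 2817 (-0.80 ± 0.09 SE, limma adjusted p = 0.000118). All 3 were already lower at 3 days, with differences from SB of -0.86 to -0.45. On the nucleotide synthesis list RRM2 was the 1 late faller, and 18 of the other 25 were lower from 3 to 7 days. The 8 cell cycle late fallers had differences from SB at 3 days between -0.26 and 0.06. The rule held them within 0.3 of SB, so no difference in timing from the genes above follows. Of them, CDC25A, HMMR and SPC24 had both 3 day libraries below both SB libraries.

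RNA polymerase and RNA processing genes gave 5 late fallers with a median change of -1.06. POLR3G, a subunit of RNA polymerase III, was at 2544 and 2041 under SB, 2738 and 2661 at 3 days, and 1190 and 1276 at 7 days. Both of its 3 day libraries were above SB, and the level then was 2.19-fold lower. CD3EAP, now POLR1G and a subunit of RNA polymerase I, was at 231 and 194, then 214 and 261, then 99 and 99. It overlaps ERCC1 on the other strand, whose row changed by -0.09. RPP40, a subunit of RNase P, changed by -0.82, the RNA-binding protein gene RBPMS2 by -1.06, and CCRN4L, now NOCT and coding for nocturnin, by -0.84. Among 10 POLR3 genes with a mean of at least 50, 3 of the other 9 were lower and 0 higher, and among 8 RNA polymerase I genes 3 of the other 7 were lower and 0 higher. The list of 40 ribosome biogenesis genes held no late faller. Of these genes 35 were lower and 0 higher from 3 to 7 days, with a median change of -0.56.

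Of the 85, 7 were small nucleolar RNAs, which guide the modification of ribosomal and other RNAs and are cut from introns of host transcripts. All 7 averaged between 50.3 and 138 normalized counts, near the lower limit of the rule, and changed by -1.31 to -0.93. SNORD68, a C/D box RNA that lies in RPL13, was at 78 and 62 under SB, 68 and 68 at 3 days, and 29 and 35 at 7 days. Its sequence at chr16:89627842-89627925 (GRCh37, plus strand, 84 bases) is shown because it is short enough to print whole, with capitals for the C box letters TGATGA and the last CTGA, the letters of a D box.
SNORD68: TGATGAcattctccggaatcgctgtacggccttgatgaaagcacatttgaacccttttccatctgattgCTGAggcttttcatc

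SNORD17, in an intron of SNX5, was at 177 and 142, then 177 and 167, then 91 and 76. SNORA16A, in SNHG12, was at 74 and 63, then 72 and 79, then 37 and 24, and SNORD26, in SNHG1, at 68 and 64, then 60 and 58, then 27 and 25. SNORA9 had the widest spread, with 68 and 27 at 7 days. The host transcripts changed from 3 to 7 days by -0.36 for RPL13, -0.40 for RPS12 (SNORA33), -0.19 for SNX5, -0.63 for SNHG1 (SNORD26 and SNORD29), -0.83 for SNHG15 (SNORA9) and -0.88 for SNHG12. At 3 days the hosts differed from SB by -0.46 to -0.13. The rule selected the small nucleolar RNAs and, apart from SNHG12, not their hosts, so these values are not a comparison between them. The counts of such RNAs in a library of long RNAs also depend on fragment length and on how reads shared with the host are assigned, which was not tested. SNHG12 was itself a late faller, at 849 and 785, then 723 and 713, then 383 and 397.

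In all, 38 rows named SNORA or SNORD reached a mean of 50, with a median change of -0.67 from 3 to 7 days. Limma called 14 of the 31 that were not late fallers lower and 0 higher. Of 14 other SNHG genes, 10 were lower and 0 higher, with a median of -0.48. These counts can be set beside 16.2% of all tested genes called lower.

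Of the junction and polarity list, 3 genes were late fallers. CGN, or cingulin, a tight junction protein that links to actin, was at 905 and 1044, then 874 and 919, then 433 and 365. PKP2, a desmosome plaque protein, was at 332 and 302, then 397 and 333, then 177 and 218.

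Of the other 31 tested genes of the junction and polarity list, 15 were lower and 4 higher at 3 days against SB, with a median of -0.43, and 8 were lower and 9 higher from 3 to 7 days, with a median of 0.06. ESRP2, an epithelial splicing factor, fell in both steps, with 797 and 832, then 386 and 447, then 149 and 121 (-1.62 ± 0.15 SE from 3 to 7 days, limma adjusted p = 2.69e-05). OCLN, or occludin, was at 52 and 95, then 44 and 29, then 12 and 11 (-1.56 ± 0.35 SE, limma adjusted p = 0.0059), and this call was lost without TGFβ 3 day replicate 1 and with no filter on low values (0.0509). TJP3 was near 0 under TGFβ, at 21 and 70, then 1 and 1, then 6 and 7 (1.90 ± 0.57 SE, limma adjusted p = 0.0232), and its call was lost when any 1 TGFβ library was left out, with no filter on low values (0.0848), with no trend (0.0537) and with a pseudocount of 5 (0.114).

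Metabolic and mitochondrial genes numbered 10, with changes between -1.32 and -0.88. PYGL, liver glycogen phosphorylase, was at 8884 and 7756 under SB, 7082 and 6756 at 3 days, and 3729 and 3804 at 7 days. UAP1, which makes UDP-N-acetylglucosamine, was at 6990 and 5762, then 7583 and 6633, then 3721 and 3989. PPIF, or cyclophilin D, a regulator of the mitochondrial permeability pore, was at 5026 and 4290, then 3840 and 3737, then 1864 and 1803. PYGL, PPIF, MTFR2 and HPDL had both 3 day libraries below both SB libraries, and UAP1 overlapped with SB. The glycosyltransferase genes GCNT2 and B3GALT5 changed by -1.03 and -0.97, the epidermal lipoxygenase gene ALOXE3 by -1.32, MTFR2 by -1.13, HPDL by -1.08 and the mitochondrial methionyl-tRNA synthetase gene MARS2 by -0.92.

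MT1A was the 1 late faller on the list of metallothionein and zinc genes, at 663 and 478, then 499 and 540, then 299 and 242. Metallothionein genes are near-identical copies and only uniquely mapped reads were counted. Reads that match several copies are therefore left out of its count. Of the other 14 tested genes of that list 5 were lower and 0 higher from 3 to 7 days.

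Membrane and secreted proteins numbered 8. TM4SF1, a surface protein of the tetraspanin-like family, was at 13597 and 10448 under SB, 12039 and 11099 at 3 days, and 6045 and 6554 at 7 days. STOM, or stomatin, a lipid raft protein, was at 5253 and 5553, then 6964 and 6278, then 3595 and 3807. STOM was among the members highest at 3 days relative to SB (0.29) and had the smallest difference between 7 days and SB (-0.55). The semaphorin SEMA3E was at 261 and 191, then 242 and 222, then 116 and 120, and the adhesion receptor GPR126, now ADGRG6, at 2451 and 2192, then 2127 and 1977, then 1100 and 1186. CPA4, a secreted carboxypeptidase, changed by -1.32, EFEMP1 or fibulin-3 by -0.95, UNC13D, a factor of vesicle priming, by -0.93, and the interleukin-12 receptor gene IL12RB2 by -0.86.

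The remaining members were mostly noncoding or copied sequences. SPRR2C, a pseudogene of the small proline-rich family of the epidermis, had the second deepest fall. It was at 181 and 116 under SB, 157 and 180 at 3 days, and 27 and 32 at 7 days, a change of -2.48. Only uniquely mapped reads were counted, so reads that also match near-identical SPRR2 genes would be left out of its count. Both FAM86FP (-1.14) and FAM86JP (-0.82) belong to the FAM86 family of near-identical copies, of which 9 rows had a mean of at least 50. Of the other 7, 2 were lower and 0 higher. PGM5P2, ANKRD30BL and LOC441666 are further copies whose counts are uncertain for the same reason. ALMS1-IT1, TOPORS-AS1, MBNL1-AS1 and KTN1-AS1 lie in or opposite other genes, whose own rows, which the rule did not select, had changes of 0.13 for ALMS1, -0.08 for TOPORS, -0.15 for MBNL1 and 0.10 for KTN1. TOPORS-AS1, now SMIM27, is annotated as protein-coding and also overlaps NDUFB6, whose row changed by -0.03. The 4 transcripts averaged between 50.3 and 96.0 normalized counts and changed by -1.08 to -0.86. NEXN-AS1, opposite NEXN, was low, with a mean of 12.3. For 1 further member the table gives a number in place of a symbol, so it is not named here, and SOWAHC, an ankyrin repeat protein at -0.80, was placed in no group.

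**Figure D5:**
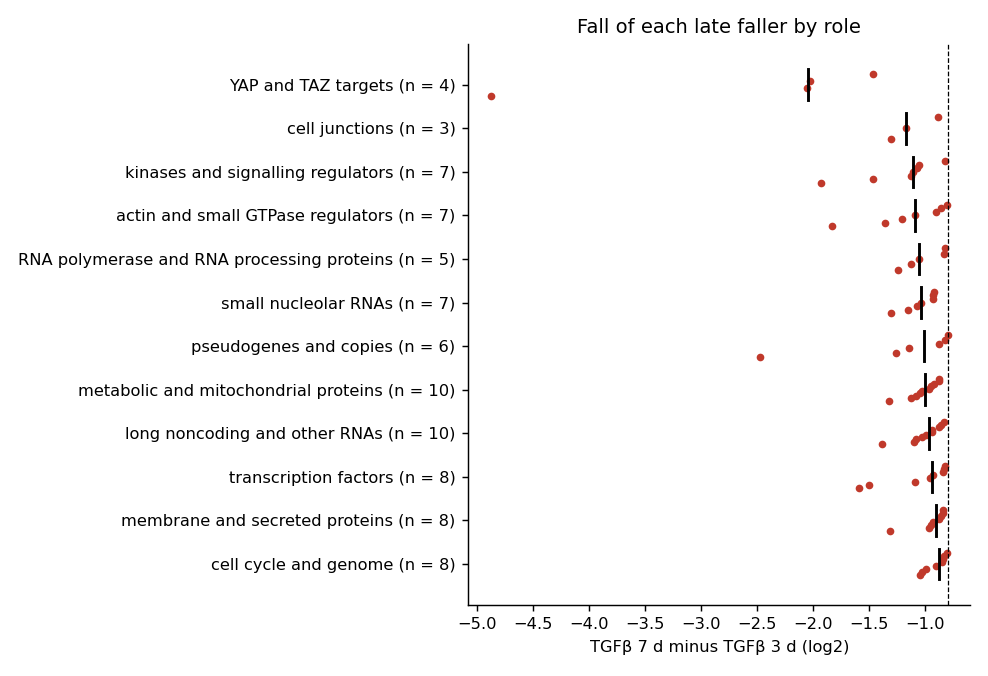
Change from TGFβ 3 d to TGFβ 7 d (log2) of each late faller, grouped by role, with the median of each group as a black bar and the limit of the rule at -0.8 as a dashed line. The groups were made by hand and the values are those the rule used. The 4 YAP and TAZ targets have a median of -2.04, and the other groups have medians between -1.17 and -0.88. The 2 members with no group are not drawn.

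Mean normalized counts of the late fallers ran from 50.3 to 14484 with a median of 369, against 1101 over the genes that had the required level. The median change was -0.99 for the 21 with a mean under 100, -1.05 for the 36 with a mean from 100 to under 1000 and -0.95 for the 28 with higher means. Normalized counts are not scaled by gene length, so levels of different genes are not compared. Among 63 protein-coding members the median gene span was 31.3 kb and the median longest transcript 3559 bases, against 34.6 kb and 4020 bases for 11534 protein-coding genes with that level. The windows around their start sites had a median GC content of 67.0%, against 66.7%, and a median ratio of observed to expected CpG of 0.81, against 0.86. The 75 members with a position lay on 21 chromosomes, with 9 on chromosome 1 and 8 each on chromosomes 2 and 6.

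Most of the fixed lists held few or no late fallers. Of 44 lists, 30 held none, among them the lists of TGFβ feedback genes, extracellular matrix, integrins and interferon-stimulated genes. Late fallers were 85 of the 14395 tested genes, so a list of this length often holds none whatever its genes. An empty list is therefore not read as a result about its pathway. On the TGFβ feedback list 19 of 35 tested genes were higher and 3 lower from 3 to 7 days, with a median of 0.38. On the p53 target list AEN was the 1 late faller, and 5 of the other 22 were lower and 3 higher, with a median of 0.11.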

How the data were processed

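RNA-seq of 6 libraries (SB, TGFβ 3 days and TGFβ 7 days, 2 each) was analysed. The authors prepared unstranded libraries from poly-A RNA, mapped read pairs to hg19 with STAR, counted reads per gene with HTSeq 0.6.1p1 and scaled the counts by library size. FastQC 0.11.5 and DESeq2 (version 3.4 in the submitters' processing notes) are also named. The deposited values, recorded under the unit score, are these normalized counts as whole numbers, with no library depths, so counting error and read counts were not computed.

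Values were taken as log2(value + 1). A limma model (version 3.58.1, R 4.3.3) with group as its term and a trend on mean expression covered the 14395 genes averaging 10 or more, all 6 libraries together, with Benjamini-Hochberg adjustment over all genes at 0.05. The method was tested on simulated counts with the same spread setting for all genes and no systematic difference between libraries of a group. The SB libraries here did differ, so that test does not cover such a gap. The members and gene lists were chosen with earlier results of these data known. Named members were the 15 with the largest falls, the 10 with the highest means, those on a list and those next to a threshold, and for lists with 2 or more members up to 3 other called genes with the largest change from 3 to 7 days. Roles were assigned by hand, and genes outside this rule were named after their values were seen. Positions come from GENCODE on GRCh37 (75 of 85 members matched), older symbols and intron hosts from RefSeq GRCh38.p14. For 15 members exons overlap a gene on the other strand.

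Replicate numbers did not pair the libraries: the differences between replicates 1 and 2 correlated at 0.14 between SB and TGFβ 3 days, -0.10 between SB and TGFβ 7 days and -0.29 between both TGFβ groups. Values of some genes are not reported here.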

Additional observations from a re-analysis of the deposited data

Results flagged for a closer look

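Under TGFβ, 4 named list genes differed from SB in opposite directions at the 2 time points. Each had a limma call (adjusted p under 0.05) at both times and for the difference between the times. CYR61, CTGF and F3 were higher in SB replicate 1 than in SB replicate 2. For CYR61 the log2 difference from SB was 0.88 at the first time and -2.60 at the second, a change of -3.48. CTGF was at 0.84 and -1.49, a change of -2.33, and F3 at 0.99 and -1.26, a change of -2.25. MAFF was at 0.40 and -0.74, a change of -1.14. The cause was not tested, and days in culture differ along with days of TGFβ.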

How the results depend on the processing

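The number of late fallers and the number of genes called by limma depended on single libraries. The rule returned 85 genes with all libraries, 79 to 118 with 1 library left out, and between 101 (without replicate 2) and 209 (without replicate 1) with 1 library per group. With a pseudocount of 0.5 or 5, equal library totals or median-of-ratios size factors it returned 89, 78, 73 and 99. The median change of the 85 stayed between -1.04 and -0.95 in every alternative. None of the 40 named members changed sign, and the weakest value for any of them was -0.50 (PGM5P2). The rule chose all these genes for their fall in the same libraries, so the kept sign and the steady median support nothing further. Leaving out an SB library cannot alter these values, because SB is not part of the change between the TGFβ groups.

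Between 7 and 3 days limma called 4775 genes, 2294 to 5570 with 1 library left out, 3042 with no filter on low values and 3122 with no trend. The counts without TGFβ 3 day replicate 1 (2800), TGFβ 7 day replicate 1 (2554) and TGFβ 7 day replicate 2 (2294) were below the full count by more than 1.5 times. Between 3 days and SB it called 4170, and 2608 to 3894 with 1 library left out, the lowest without TGFβ 3 day replicate 1. Between 7 days and SB it called 7851, and 5893 to 7682 with 1 library left out. With a replicate block the 3 counts were 4485, 3943 and 7546. The block was not used because the numbers do not pair the libraries. With no filter on low values EGR1, EGR2, CXCL8, OCLN and TJP3 lost their calls, at adjusted p of 0.0537, 0.0527, 0.171, 0.0509 and 0.0848 by limma. With equal library totals the calls at 3 days against SB moved from 2021 lower and 2149 higher to 2552 lower and 1819 higher. On the replication and mitosis lists that scaling gave 31 and 33 lower at 3 days, where 23 and 26 were lower as deposited, and 0 higher in each. The cause of these shifts was not tested.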
